A study of Mus musculus with 9 samples.

Results

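Chromatin and DNA methylation regulators were followed here as a set of 43 genes chosen by name, among the 52636 genes of a count table. They comprise histone deacetylases of class I, II and IV, sirtuins, DNA methyltransferases, TET dioxygenases, histone methyltransferases and demethylases, and the SWI/SNF, CHD and BAZ remodelling proteins. All 43 were found in the table and all 43 passed the filter on low counts.

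Cells of the nucleus accumbens were taken from male C57BL/6 mice and sorted on an antibody to ChAT, which synthesises acetylcholine and so marks cholinergic interneurons, the striatum's own acetylcholine neurons. Tissue of 2 to 3 mice was pooled per condition, and since no label tells if each library had a pool of its own, p-values measure only the spread among the libraries at hand. The 9 libraries form 3 groups of 3. The naive group had no cocaine and is labelled wild type. The groups titled RES and SUS took up to 40 cocaine infusions on a fixed ratio schedule and then 10 daily progressive ratio sessions of 23 h at 1.2 mg/kg per infusion. Their tissue dates from day 3 after these sessions. Titles and phenotype labels of RES and SUS contradict each other, so the title names are kept and nothing is read as susceptibility or resilience. Ages are not given, and each library is named by its group and number, such as RES 3.

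DNA in the nucleus is wound around histones, and enzymes that add or remove acetyl and methyl groups on histone tails change how readily a gene is transcribed. DNA methyltransferases place methyl groups on cytosines, mostly at CpG dinucleotides, and TET enzymes oxidise them as a step towards removal. Remodelling complexes use ATP to slide or eject nucleosomes. In the nucleus accumbens, a reward centre of the ventral striatum, several of these enzymes, among them histone deacetylases and the H3K9 methyltransferase G9a (Ehmt2), have been studied for their part in lasting responses to repeated cocaine.

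A level is the count per kilobase of a gene's exons divided by the same density summed over 1134 olfactory receptor genes of the same library. These receptor genes are normally silent outside the olfactory system, so a level of 1 equals the density at genes taken as silent and is called background. Abundance for comparisons between libraries is given as CPM, counts brought to a common library size with TMM, the trimmed mean of M values.

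Total counts ran from 4471675 to 11155730 per library, and the members' counts in single libraries ran from 14 for Suv39h2 in naive 2 to 7304 for Kmt2d in naive 3. Background density over the exons of all nuclear genes would make up 23.8% to 32.7% of the nuclear counts in 6 libraries, 35.9% in SUS 3, 37.3% in naive 1 and 50.4% in RES 3. This share depends on the receptor genes taken as silent. Vomeronasal receptors, another class of sensory receptor genes, lay at 0.271 to 0.284 of the olfactory receptor density and would give a lower share in every library. RES 3 also had the largest TMM factor, 1.58 against 0.743 to 1.09 in the other libraries. None of 8 cholinergic markers averaged over 3 times background, and Chat itself had levels of 0.877 to 2.5 in 8 libraries and 7.86 in SUS 2, so the label of cholinergic interneurons is not borne out by these markers. The summed level of 10 microglial markers was 22.9, 48.3 and 3.92 in naive 1 to 3, 21, 1.67 and 2.19 in RES 1 to 3, and 58.0, 3.34 and 70.3 in SUS 1 to 3. That of 10 medium spiny neuron markers, genes of the main striatal neurons, was 8.56, 17.6 and 14.1, then 11.4, 22.8 and 4.47, then 8.84, 19.0 and 4.10 in the same order. In such pooled cells, fewer cells of a type and less RNA per cell cannot be told apart.

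The starts of these genes share a feature that the choice did not use. RefSeq promoters of the build GRCm38.p6, 250 bases before to 50 after the start, were matched to 37 members, and Baz1a, Chd3, Hdac1, Hdac10, Hdac3 and Kdm6b had none in the table used. By a common definition of CpG-rich sequence (at least 50% G and C, and CpG at no less than 0.6 of the number expected from the base composition), 33 of 37 promoters, or 89.2%, were CpG-rich, against 47.5% of 16478 protein-coding promoters. The median member promoter held 28 CpG and all protein-coding promoters had a median of 14. The exceptions at the first listed start were Dnmt1, Hdac8, Hdac9 and Tet3. More than 1 promoter was listed for 10 members, and counting any listed promoter 34 members had a CpG-rich one. Dnmt1 was then among them, and Hdac8, Hdac9 and Tet3 were not. On either strand, the GC box GGGCGG was found in 81.1% of member promoters and 48.1% of protein-coding ones, CCAAT in 37.8% and 38.7%, the ETS core CCGGAAG in 16.2% and 12.3%, the AP-1 motif TGANTCA in 5.4% and 7.1%, and the cyclic AMP element TGACGTCA in 2.7% and 2.4%. Such matches describe letters only, and the GC box itself holds a CpG. The protein-coding promoters were not limited to genes above 3 times background, and such a limited set was not compared. The 200 bases before the start are printed below, with each CpG in capitals, for 4 members picked after their values were seen: Smarca4, the member with the highest level; Chd5, one of the most variable between libraries; Suv39h1, at background level; and Hdac9, whose window has no CpG. They lie at chr9:21615969-21616168 on the plus strand, chr4:152338451-152338650 on the plus strand, chrX:8074761-8074960 on the minus strand and chr12:34917096-34917295 on the minus strand, each directly upstream of the gene's first exon.
Smarca4: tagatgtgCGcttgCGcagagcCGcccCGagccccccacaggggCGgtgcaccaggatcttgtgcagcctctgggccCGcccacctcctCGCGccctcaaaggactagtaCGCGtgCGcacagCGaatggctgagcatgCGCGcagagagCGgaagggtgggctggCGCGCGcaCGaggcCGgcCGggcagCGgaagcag
Chd5: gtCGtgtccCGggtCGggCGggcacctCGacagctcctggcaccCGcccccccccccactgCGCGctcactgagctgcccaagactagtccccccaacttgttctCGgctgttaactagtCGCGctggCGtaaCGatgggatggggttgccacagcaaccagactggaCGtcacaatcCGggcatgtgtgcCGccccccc
Suv39h1: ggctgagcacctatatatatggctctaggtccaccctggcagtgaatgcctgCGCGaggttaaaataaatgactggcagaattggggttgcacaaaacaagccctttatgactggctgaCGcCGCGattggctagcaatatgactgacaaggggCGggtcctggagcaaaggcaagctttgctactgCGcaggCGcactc
Hdac9: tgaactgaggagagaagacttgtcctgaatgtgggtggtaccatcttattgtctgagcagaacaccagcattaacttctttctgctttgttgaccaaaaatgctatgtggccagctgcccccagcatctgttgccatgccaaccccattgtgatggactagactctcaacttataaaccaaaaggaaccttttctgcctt
These 4 windows hold 22, 16, 8 and 0 CpG, in the order printed.

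Over the 9 libraries, 29 members had a mean level over 3 times background and 14 did not. Sirt7 lay just above this floor at 3.49 and Smarcb1 just below it at 2.99. For scale, 5757 of 21883 protein-coding nuclear genes passed the same floor. The 4 highest members were Smarca4 at 19.9, Chd4 at 19.1, Chd3 at 16.7 and Kmt2d at 14.1 times background, and the lowest were Suv39h2 at 0.519 and Suv39h1 at 0.676. The order therefore ran from ATP-driven remodellers and H3K4 methyltransferases at the top to the SUV39 heterochromatin enzymes at the bottom.

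**Figure D1:**
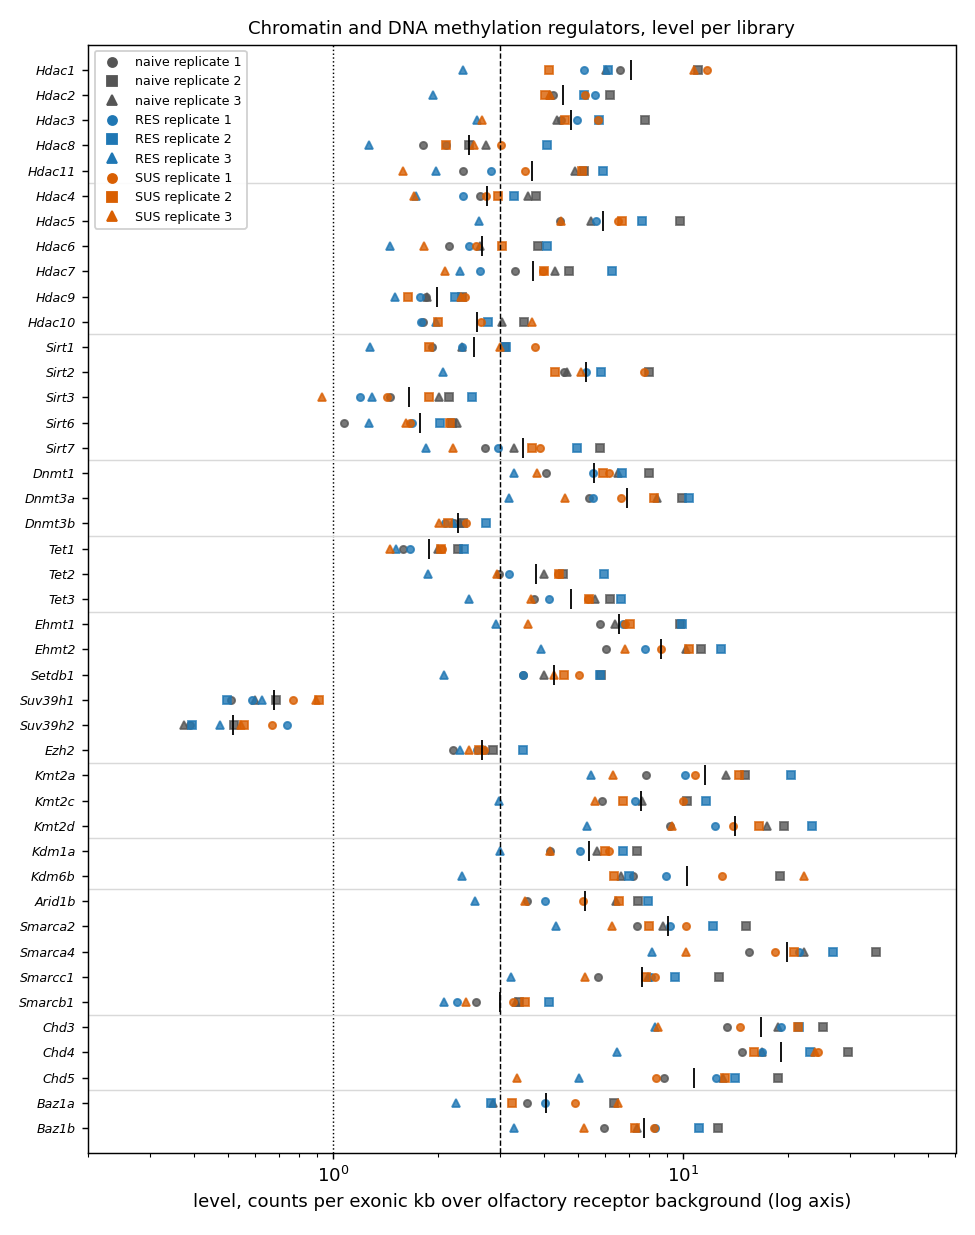
Level of each of the 43 members in each of the 9 libraries, as counts per exonic kilobase over the olfactory receptor background (log axis); symbols mark replicates, colours mark groups, the short bar is the mean, the dotted line is background and the dashed line is 3 times background. Smarca4, Chd4 and Chd3 lie far to the right, Suv39h1 and Suv39h2 stay under 1 in every library, and RES 3 is the leftmost point for most genes.

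Among the SWI/SNF proteins, Smarca4 (chr9:21616169-21704230 in GRCm38) encodes BRG1, one of the alternative ATPases of the complex. Its levels were 15.5, 35.6 and 22.1 in naive 1 to 3, 21.4, 26.9 and 8.15 in RES, and for SUS 18.4, 20.7 and 10.2. It was over 8 times background in all 9 libraries, lowest in RES 3 and next lowest in SUS 3. Smarcb1, a core subunit, was the lowest of its group with 2.57, 3.41 and 3.32 in naive, 2.26, 4.13 and 2.07 in RES, and for SUS 3.27, 3.53 and 2.39. Smarca2, the other ATPase (BRM), averaged 9.04, Smarcc1 averaged 7.62 and Arid1b averaged 5.25.

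The CHD remodellers Chd3, Chd4 and Chd5 are the alternative ATPases of NuRD, a complex that joins remodelling to histone deacetylation. Chd4 (chr6:125095981-125130591) had levels of 14.7, 29.6 and 16.8 in naive, 16.9, 23.0 and 6.49 in RES, and for SUS 24.2, 15.9 and 23.9. Chd5 (chr4:152338651-152390194), known as the neuronal member, had 8.82, 18.7 and 13.0 in naive, 12.4, 14.0 and 5.04 in RES, and for SUS 8.35, 13.2 and 3.35. Chd4 was thus high in SUS 3 where Chd5 was at its lowest, and both were low in RES 3.

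Of the BAZ proteins, which partner the ISWI ATPases, Baz1b (WSTF) had levels of 5.95, 12.6 and 7.36 in naive, 8.33, 11.1 and 3.30 in RES, and for SUS 8.25, 7.31 and 5.22. Baz1a (ACF1) had 3.58, 6.33 and 2.86 in naive, 4.04, 2.83 and 2.25 in RES, and for SUS 4.91, 3.25 and 6.51. Baz1a was highest in SUS 3, and Baz1b in naive 2.

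H3K4 methyltransferases mark promoters and enhancers. Kmt2d, which methylates enhancers, had levels of 9.16, 19.5 and 17.3 in naive, 12.3, 23.3 and 5.32 in RES, and for SUS 13.9, 16.5 and 9.28. Kmt2c, its close relative, had 5.88, 10.3 and 7.66 in naive, 7.28, 11.7 and 2.97 in RES, and for SUS 9.99, 6.72 and 5.59. Kmt2a (MLL1) averaged 11.5. All 3 were highest in RES 2 and lowest in RES 3, so the full range of each lay inside a single group.

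Histone demethylases were represented by Kdm6b and Kdm1a. Kdm6b (JMJD3; chr11:69398508-69413675), which removes methyl groups from H3K27 and is induced by many stimuli, had levels of 7.19, 18.9 and 6.64 in naive, 8.95, 7.01 and 2.34 in RES, and for SUS 13.0, 6.33 and 22.1. Kdm1a (LSD1), which demethylates H3K4, had 4.17, 7.38 and 5.66 in naive, 5.07, 6.76 and 2.99 in RES, and for SUS 6.16, 5.99 and 4.16. Kdm6b spread wider than Kdm1a within each group.

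Among the H3K9 and H3K27 methyltransferases the levels split widely. Ehmt2 (G9a) had 6.01, 11.3 and 10.2 in naive, 7.78, 12.8 and 3.93 in RES, and for SUS 8.66, 10.4 and 6.82, and its partner Ehmt1 (GLP) averaged 6.56. Setdb1, an H3K9 methyltransferase that silences repeats, averaged 4.29, and Ezh2, the H3K27 methyltransferase of Polycomb complex PRC2, averaged 2.66. Suv39h2, which methylates H3K9 in heterochromatin, had 0.389, 0.523 and 0.375 in naive, 0.738, 0.397 and 0.476 in RES, and for SUS 0.669, 0.556 and 0.547. Suv39h1 had 0.512, 0.688 and 0.600 in naive, 0.588, 0.498 and 0.6248 in RES, and for SUS 0.771, 0.910 and 0.894. No library put either SUV39 gene above background. Suv39h1 is on the X chromosome, where 7 olfactory receptor genes lay at 0.484 to 0.570 of the background over all receptors. Counting strand is not stated, and 14.6% of its exonic length overlaps the antisense gene Gm14820.

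DNA methyltransferases differed by enzyme. Dnmt3a, which sets new methylation and is the main such enzyme in mature neurons, had levels of 5.37, 9.94 and 8.40 in naive, 5.54, 10.4 and 3.19 in RES, and for SUS 6.66, 8.27 and 4.60. Dnmt1, which copies methylation after replication, averaged 5.55. Dnmt3b, the other enzyme of new methylation, had 2.22, 2.36 and 2.30 in naive, 2.08, 2.74 and 2.20 in RES, and for SUS 2.40, 2.13 and 2.01. Dnmt3b stayed under 3 times background in every library.

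TET dioxygenases averaged lower levels than Dnmt3a. Tet3 had levels of 3.75, 6.20 and 5.59 in naive, 4.14, 6.65 and 2.45 in RES, and for SUS 5.35, 5.38 and 3.68, and Tet2 averaged 3.81. Tet1 had 1.58, 2.27 and 2.00 in naive, 1.65, 2.37 and 1.51 in RES, and for SUS 2.05, 2.04 and 1.46, under the floor throughout.

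Class I deacetylases work in nuclear corepressor complexes. Hdac1 (chr4:129516104-129542713) had levels of 6.60, 11 and 6.01 in naive, 5.21, 6.09 and 2.36 in RES, and for SUS 11.7, 4.14 and 10.7, whereas Hdac8, an X-linked enzyme, had 1.81, 2.45 and 2.73 in naive, 2.10, 4.08 and 1.27 in RES, and for SUS 3.01, 2.10 and 2.52. Hdac2 averaged 4.54, Hdac3 averaged 4.77 and the class IV enzyme Hdac11 averaged 3.71. Of the exonic length of Hdac11, 15.4% overlaps Gm44002 on the opposite strand.

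Class II deacetylases include enzymes that shuttle between nucleus and cytoplasm. Hdac5, studied in the accumbens for its export from the nucleus after cocaine, led this class with 4.45, 9.78 and 5.47 in naive, 5.62, 7.63 and 2.62 in RES, and for SUS 6.54, 6.68 and 4.49. Hdac9 was lowest with 1.85, 2.34 and 1.86 in naive, 1.77, 2.23 and 1.502 in RES, and for SUS 2.38, 1.64 and 2.32. Hdac7 averaged 3.74, and Hdac4, Hdac6, the main tubulin deacetylase, and Hdac10 averaged 2.75, 2.67 and 2.58, all 3 under the floor. Hdac4 shares 22.4% of its exonic length with Gm26720 on the opposite strand.

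Sirtuins, NAD-dependent deacylases, were led by Sirt2, a mainly cytoplasmic enzyme, with 4.56, 7.98 and 4.66 in naive, 5.27, 5.83 and 2.06 in RES, and for SUS 7.72, 4.30 and 5.12. The mitochondrial Sirt3 was lowest with 1.46, 2.15 and 2.01 in naive, 1.20, 2.49 and 1.29 in RES, and for SUS 1.43, 1.89 and 0.933. Sirt7 averaged 3.49, while the nuclear Sirt1 and Sirt6 averaged 2.53 and 1.77.

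In CPM, the members tended to be high or low together in a library. Each member's log2 CPM was set against its own mean over the 9 libraries. The median member deviated by -0.17, 0.39 and 0.06 in naive 1 to 3, by 0.05, 0.21 and -0.73 in RES 1 to 3 and by 0.14, 0.13 and -0.17 in SUS 1 to 3. RES 3 held the lowest value of 29 members, naive 2 held the highest of 17 and RES 2 the highest of 12. In RES 3 this background share of counts was also the highest of the 9 libraries, 50.4%, and in naive 2 it was the lowest, 23.8%. The TMM factor, which scales all genes of a library alike, was 1.58 in RES 3 and 0.743 in naive 2. As a share of all counts, without TMM scaling, the members held 0.452%, 0.498% and 0.53% in naive 1 to 3. They held 0.429%, 0.609% and 0.414% in RES 1 to 3, and 0.43%, 0.55% and 0.44% in SUS 1 to 3. What part the background share and the scaling had in the members' values was not tested. Against this pattern, Kdm6b, Hdac1, Baz1a, Hdac9, Hdac10 and Suv39h1 were highest by CPM in SUS 3, the library with the highest microglial marker level. As levels over background, Hdac1 and Hdac9 were instead highest in SUS 1 and Suv39h1 in SUS 2. The part of microglia in these values was not tested.

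**Figure D2:**
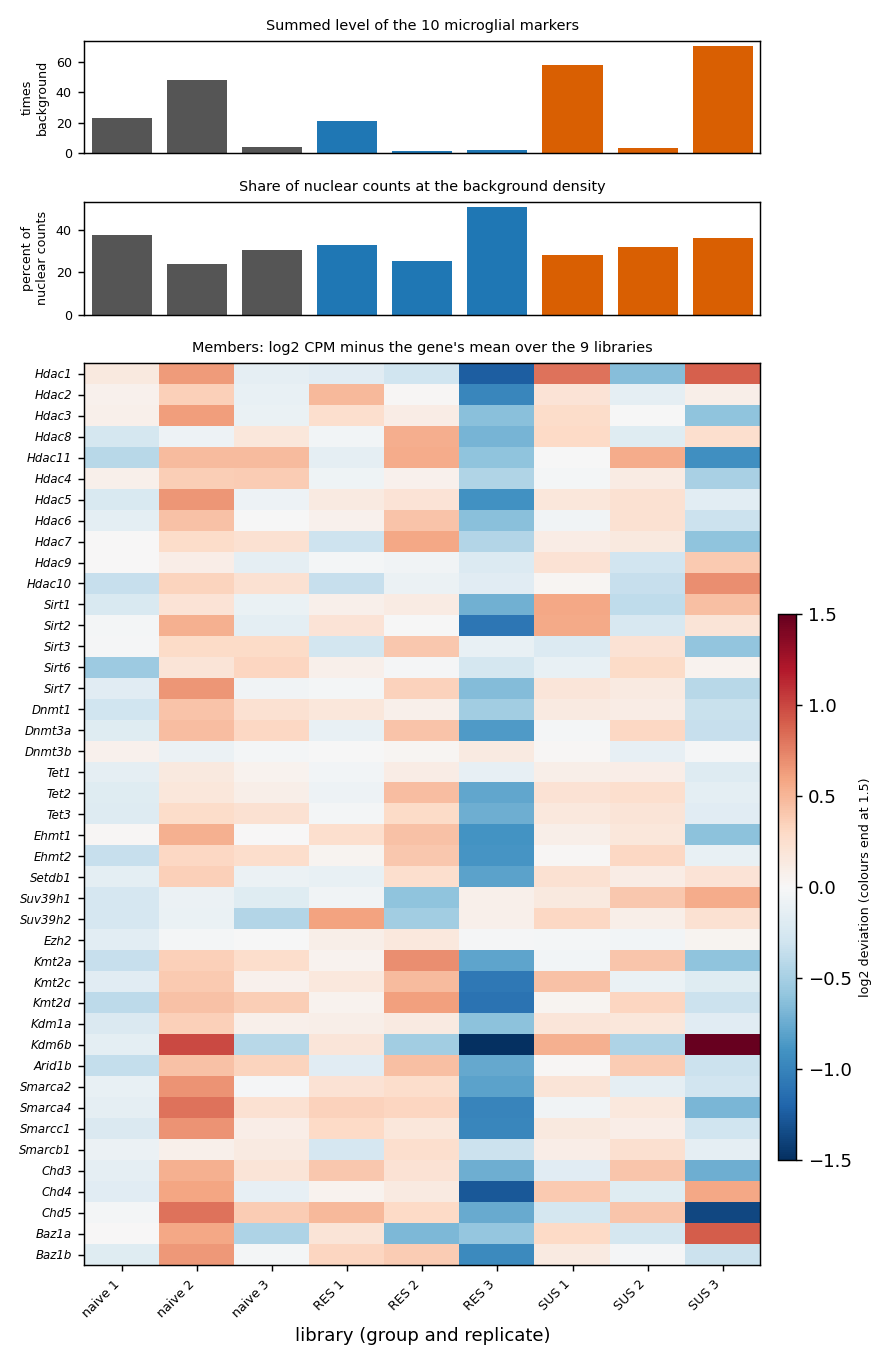
Heat map of each member's log2 CPM minus its mean over the 9 libraries (columns: libraries; rows: members), with bars above for the summed level of 10 microglial markers and for the percent of nuclear counts at background density. The RES 3 column is blue for most members, with a median of -0.73, and naive 2 is red, with a median of 0.39.

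Over all 43 members the median spread within groups was close to that of protein-coding genes above the floor, but over the 29 members above it the spread was larger. The standard deviation (SD) of log2 CPM within groups had a median of 0.439 over the members and 0.450 over protein-coding genes above 3 times background, and 21 members lay above the latter. Kdm6b varied most, over a range of 3.20 log2 units between RES 3 and SUS 3, followed by Chd5 with 2.17 and Hdac1 with 2.13. Dnmt3b varied least, over 0.25, and Ezh2 and Tet1 spanned 0.32 and 0.34. The steady members were mostly those near background: the median SD was 0.289 for the 14 at or under the floor. It was 0.503 for the 29 above it, beside 0.450 for protein-coding genes above the same floor.

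RES was first set against naive. No member passed at an adjusted p of 0.05 in edgeR's quasi-likelihood test with Benjamini-Hochberg adjustment over 39210 genes, where 0% of genes were called. At an unadjusted p under 0.05 the test gave 0 members and 361 genes (0.921%), and DESeq2 and limma-voom, which also called 0 genes, gave 264 and 1671 genes. The fitted log2 fold change was below 0 for 38 of 43 members, with a median of -0.18 and a range of -0.77 to 0.46. Among all genes tested 52.6% were below 0, with a median of -0.02. Among protein-coding genes above 3 times background 78.6% were below 0, with a median of -0.16, and of the 29 members above that floor all 29 were below 0, with a median of -0.22. Without RES 3 this was 12 of the 29 members and 42.7% of those genes.

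Hdac1, Kdm6b and Baz1a had the smallest p in this comparison among members above the floor. Hdac1 was at 49.5, 69.5 and 40.5 CPM in naive, against 39.6, 36.1 and 18.6 CPM in RES, so every RES library lay below every naive one. The gap between RES 1 and naive 3 was small beside the spread in either group. As levels over background the groups overlapped, with RES 2 at 6.09 and naive 3 at 6.01. The means were 53.2 ± 14.8 and 31.4 ± 11.3 CPM (SD, n = 3), and the log2 fold change was -0.76 (SE 0.406; edgeR adjusted p = 1), or -0.48 without RES 3. Kdm6b was at 109, 241 and 90.4 CPM in naive, against 137, 83.8 and 37.3 CPM in RES, with a log2 fold change of -0.77 (SE 0.562; edgeR adjusted p = 1). These groups overlapped, and without naive 2 the Kdm6b value was -0.21. Baz1a was at 55.8, 83.1 and 40.1 CPM in naive, against 63.8, 34.8 and 36.9 CPM in RES, and its log2 fold change of -0.39 (SE 0.380; edgeR adjusted p = 1) became -0.08 without naive 2. In all 3 genes naive 2 was the highest naive library. It also led the naive libraries in summed microglial (48.3), medium spiny neuron (17.6), pan-neuronal (9.31), oligodendrocyte (23.3), oligodendrocyte precursor (3.19) and endothelial (2.72) markers. It did not in astrocyte, cholinergic or red blood cell markers. Its background share of counts, 23.8%, was the lowest of the 9 libraries. Whether any of these had a part in the values was not tested.

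Only Hdac1 and Hdac4 had RES and naive libraries that did not overlap in CPM, both lower in RES, a pattern shown by 2.82% of all genes tested. Hdac4 was at 90.3, 110 and 112 CPM in naive, against 81.9, 89.4 and 62.4 CPM in RES, with a log2 fold change of -0.42 (SE 0.312; edgeR adjusted p = 1). The gap between its highest RES and lowest naive library was small beside the spread in either group.

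By role, all 5 SWI/SNF members, all 3 CHD members, all 5 sirtuins and all 6 class II deacetylases had fitted values below 0 for RES against naive. So did all 3 TET and 3 H3K4 enzymes, the 2 demethylases and the 2 BAZ proteins, and none passed the test. Below 0 were also 4 of 5 class I and IV deacetylases, 2 of 3 DNA methyltransferases and 3 of 6 H3K9 and H3K27 methyltransferases. Of protein-coding genes above 3 times background, 78.6% were below 0. Group medians were -0.26 for SWI/SNF, -0.32 for CHD, -0.16 for sirtuins, -0.22 for class II deacetylases and -0.08 for TET. They were -0.12 for the H3K4 enzymes, -0.47 for the demethylases and -0.28 for the BAZ proteins. The 5 members above 0 were Suv39h2, Ezh2, Dnmt3b, Hdac8 and Suv39h1, all at or under 3 times background. Without RES 3, 18 of 43 members were below 0 with a median of 0.01, and the median of the expressed protein-coding genes became 0.04. Without naive 2, 27 were below 0.

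**Figure D3:**
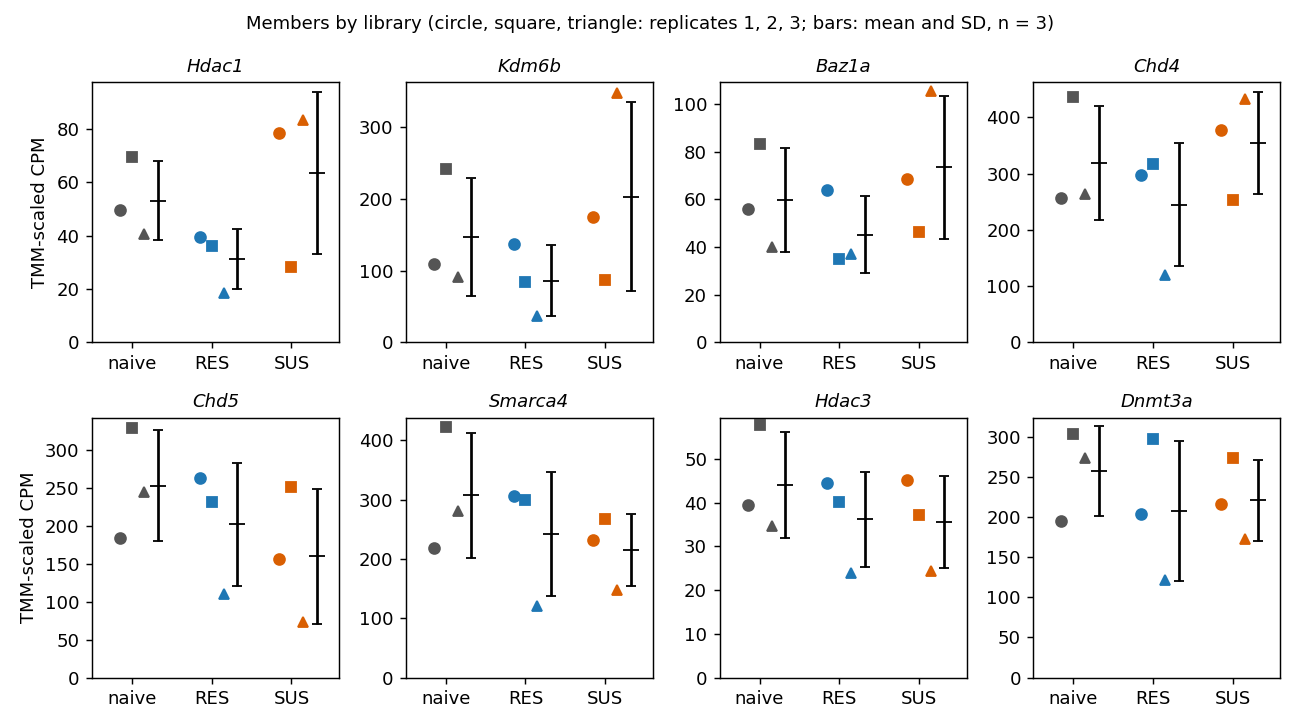
TMM-scaled CPM of 8 members in each library (circle, square and triangle are replicates 1, 2 and 3; bars are mean and SD, n = 3). Hdac1, Kdm6b and Baz1a were higher in SUS 1 and SUS 3 than in SUS 2, and RES 3 was low in nearly every panel.

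SUS against naive gave 0 called members and 0% of genes called in edgeR. At an unadjusted p under 0.05 there was 1 member, Suv39h1, and 1225 genes (3.12%), and DESeq2 and limma-voom gave 931 and 3225 genes with 0 called. Fitted values were below 0 for 27 members and above 0 for 16, with a median of -0.05, beside medians of 0.02 over all genes and 0.02 over the expressed protein-coding genes, of which 47.2% were below 0 (47.8% of all genes). Of the 29 members above the floor 22 were below 0, with a median of -0.14. Without naive 2 this was 12 of the 29 members and 36.6% of the expressed protein-coding genes.

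Chd5, Smarca4 and Hdac3 had the smallest p above the floor. Chd5 was at 184, 329 and 244 CPM in naive, against 156, 251 and 72.5 CPM in SUS, which overlapped, with means of 252 ± 72.8 and 160 ± 89.1 CPM (SD, n = 3). Its log2 fold change was -0.66 (SE 0.488; edgeR adjusted p = 1), and without SUS 3 it was -0.31. Smarca4 was at 218, 423 and 280 CPM in naive, against 231, 267 and 149 CPM in SUS, a log2 fold change of -0.51 (SE 0.463; edgeR adjusted p = 1) that became -0.21 without naive 2. Hdac3, the deacetylase of the NCoR and SMRT corepressors, was at 39.5, 57.7 and 34.7 CPM in naive, against 45.2, 37.1 and 24.4 CPM in SUS, a log2 fold change of -0.30 (SE 0.320; edgeR adjusted p = 1) that became -0.06 without naive 2. SUS 3 was the lowest SUS library for all 3 genes, and it had the lowest medium spiny neuron marker level of the 9 libraries, 4.10. What part those cells had in the values was not tested.

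The SUV39 enzymes were the only members whose SUS and naive libraries did not overlap, both higher in SUS, as were 3.85% of all genes tested. Suv39h1 was at 5.87, 6.65 and 6.20 CPM in naive, 6.84, 4.51 and 7.54 CPM in RES, and for SUS 7.91, 9.53 and 10.6 CPM, from 21 to 88 counts a library. Its log2 fold change for SUS against naive was 0.59 (SE 0.253; edgeR adjusted p = 1), and it ran from 0.49 to 0.69 with each library left out. Suv39h2 was at 3.73, 4.23 and 3.24 CPM in naive, against 5.74, 4.88 and 5.44 CPM in SUS, a log2 fold change of 0.55 (SE 0.326; edgeR adjusted p = 1). Both genes were under the olfactory receptor background in every library. The X-linked receptors lay lower than Suv39h1 in SUS, at 0.4846, 0.4837 and 0.5332 of that background, and against vomeronasal receptors, another class of sensory receptor genes, the mean levels were 2.45 for Suv39h1 and 1.88 for Suv39h2.

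SUS against RES compares the cocaine groups and shares its libraries with the comparisons above. edgeR again called 0 members and 0% of genes, with a smallest adjusted p of 0.87 over all genes. At an unadjusted p under 0.05 there were 3 members, Hdac1, Kdm6b and Suv39h1, and 2227 genes (5.68%), or 11.3% of the expressed protein-coding genes, and DESeq2 and limma-voom gave 1885 and 3734 genes with 0 called. Of the members 29 were above 0 and 14 below, with a median of 0.09, and of the expressed protein-coding genes 63.2% were above 0 (51.2% of all genes), with a median of 0.12. Of the 29 members above the floor 10 were below 0, with a median of 0.08, and without RES 3 this was 23.

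Hdac1 was at 39.6, 36.1 and 18.6 CPM in RES, while SUS had 78.5, 28.4 and 83.3 CPM. The groups overlapped because SUS 2 lay among the RES libraries, and the log2 fold change was 1.02 (SE 0.406; edgeR adjusted p = 0.87). Kdm6b was at 137, 83.8 and 37.3 CPM in RES, while SUS had 175, 87.6 and 347 CPM, with means of 86.2 ± 50.1 and 203 ± 132 CPM (SD, n = 3) and a log2 fold change of 1.24 (SE 0.566; edgeR adjusted p = 0.87). Baz1a was at 63.8, 34.8 and 36.9 CPM in RES, while SUS had 68.5, 46.2 and 105 CPM, a log2 fold change of 0.70 (SE 0.380; edgeR adjusted p = 0.879). With each library left out in turn these values ran from 0.74 to 1.37 for Hdac1, from 0.61 to 1.73 for Kdm6b and from 0.34 to 1.01 for Baz1a, with the lowest without RES 3 for Hdac1 and without SUS 3 for Kdm6b and Baz1a. The libraries high in these genes, SUS 1 and SUS 3, had microglial marker levels of 58.0 and 70.3, and SUS 2 had 3.34. RES 1, the highest RES library for all 3, had 21, and RES 2 and RES 3 had 1.67 and 2.19. Summed oligodendrocyte markers were at 34.4, 7.65 and 10.8 in SUS 1 to 3 and 10.3, 8.82 and 3.08 in RES 1 to 3. Those of endothelial cells were at 2.58, 2.42 and 3.95 in SUS and 2.58, 1.96 and 1.81 in RES. Astrocyte and medium spiny neuron markers were instead highest in RES 2 among the cocaine libraries. The part of any of these cell types in the differences was not tested.

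Suv39h1 was the only member whose SUS libraries all lay above all RES libraries, as did 3.41% of genes tested, with a log2 fold change of 0.55 (SE 0.253; edgeR adjusted p = 0.87). Chd4, the next largest value above the floor, was at 298, 317 and 119 CPM in RES, while SUS had 378, 254 and 432 CPM, a log2 fold change of 0.54 (SE 0.473; edgeR adjusted p = 0.944) that became 0.20 without RES 3. Chd5 was at -0.34 (SE 0.486), which became 0.01 without SUS 3. Counts of direction depended on single libraries: 30 members were below 0 without RES 3, 5 without RES 2 and 3 without SUS 3, against 14 with all libraries.

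**Figure D4:**
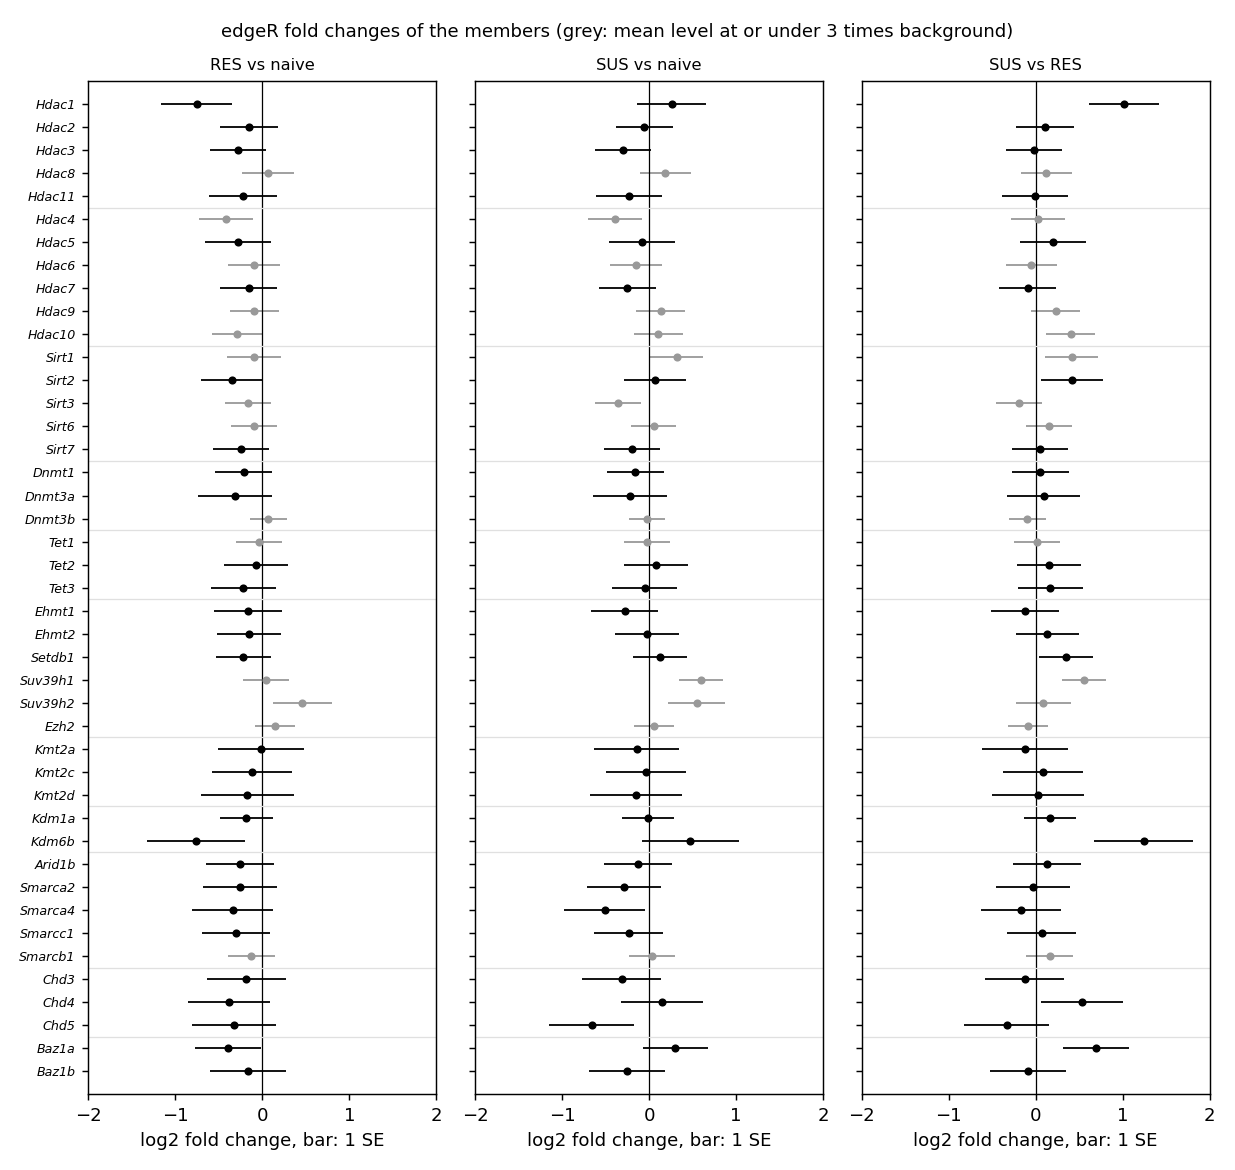
Log2 fold changes of the 43 members with bars of 1 SE in the 3 pairwise comparisons (grey: mean level at or under 3 times background). None passed at an adjusted p of 0.05, and Kdm6b with 1.24 and Hdac1 with 1.02 lay farthest from 0 in SUS against RES.

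The 6 cocaine libraries together were set against the 3 naive libraries. edgeR called 0 members and 0% of genes. At an unadjusted p under 0.05 there were 0 members and 541 genes (1.38%), and DESeq2 and limma-voom gave 484 and 1697 genes with 0 called. Of 43 members 35 had values below 0, with a median of -0.12, beside medians of 0.01 over all genes and -0.05 over the expressed protein-coding genes, of which 61.1% were below 0 (48.6% of all genes). Of the 29 members above the floor 28 were below 0, with a median of -0.18. Without naive 2 this was 12 of the 29 members and 35.8% of the expressed protein-coding genes. For no member did the cocaine libraries all lie on one side of the naive ones, as they did for 0.617% of genes above and 0.553% below. The count of members below 0 was 16, with a median of 0.05, without naive 2 and 24 without RES 3.

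Chd5, Smarca4 and Hdac3 had the smallest p here too, with log2 fold changes of -0.48 (SE 0.401), -0.42 (SE 0.371) and -0.29 (SE 0.266) and an edgeR adjusted p of 1 each. These rest on the naive libraries and SUS values already given, with RES at 263, 231 and 111 CPM for Chd5, 306, 299 and 121 CPM for Smarca4 and 44.5, 40.2 and 23.9 CPM for Hdac3. RES 3 was the lowest RES library for each. Without naive 2 the values were -0.24 for Chd5, -0.12 for Smarca4 and -0.05 for Hdac3.

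Of 8 members taken to stand for the main enzyme classes, Smarca4 differed by more than 1 SE in this comparison, and Dnmt3a, Hdac5, Ehmt2, Tet1, Sirt1, Kdm6b and Chd4 by less. Dnmt3a was at 194, 304 and 274 CPM in naive, 204, 297 and 122 CPM in RES, and for SUS 216, 274 and 173 CPM, a log2 fold change of -0.27 (SE 0.338; edgeR adjusted p = 1). Hdac5 was at 85.0, 158 and 94.1 CPM in naive, 109, 115 and 52.7 CPM in RES, and for SUS 112, 117 and 89.0 CPM, a log2 fold change of -0.18 (SE 0.311; edgeR adjusted p = 1). Ehmt2 was at 71.8, 114 and 109 CPM in naive, 94.3, 121 and 49.4 CPM in RES, and for SUS 92.5, 113 and 84.5 CPM, a log2 fold change of -0.09 (SE 0.302; edgeR adjusted p = 1). In all 3 genes the cocaine libraries overlapped the naive ones.

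Tet1 was at 53.2, 64.4 and 60.4 CPM in naive, 56.4, 62.9 and 53.6 CPM in RES, and for SUS 61.7, 62.6 and 50.8 CPM, with a log2 fold change of -0.03 (SE 0.215; edgeR adjusted p = 1). Sirt1 was at 22.3, 30.2 and 24.3 CPM in naive, 27.5, 28.6 and 15.6 CPM in RES, and for SUS 39.2, 19.95 and 36.0 CPM, with a log2 fold change of 0.13 (SE 0.274; edgeR adjusted p = 1). Both averaged under 3 times background. Kdm6b and Chd4, whose library values stand above, had log2 fold changes of -0.02 (SE 0.543) and -0.09 (SE 0.397) for cocaine against naive. Leaving out naive 2 gave 0.54 for Kdm6b, 0.20 for Chd4, 0.15 for Hdac5 and -0.13 for Dnmt3a.

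**Figure D5:**
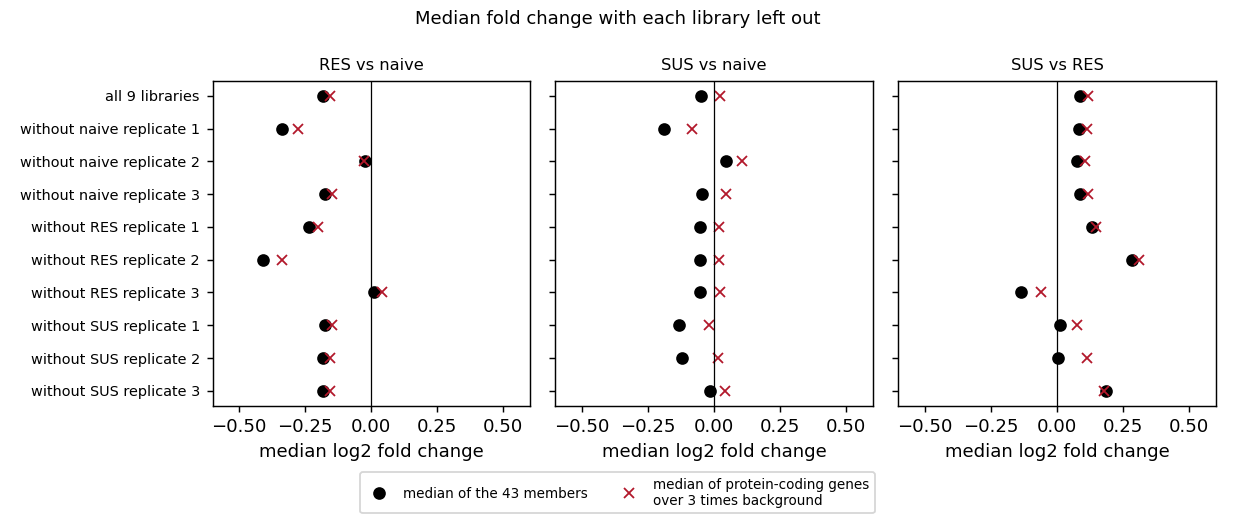
Median log2 fold change of the 43 members (black circles) and of protein-coding genes over 3 times background (red crosses) with all libraries and with each library left out. For RES against naive the members' median of -0.18 becomes 0.01 without RES 3, and that of the protein-coding genes goes from -0.16 to 0.04. For SUS against naive with all libraries the medians were -0.05 for the members and 0.02 for the protein-coding genes. The circles include the 14 members at or under 3 times background.

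The wider chromatin machinery was read from 128 further genes in 8 lists (acetyltransferases, bromodomain readers, corepressor subunits, methyl-CpG readers with demethylation helpers, Polycomb proteins, other methyltransferases, other demethylases and other remodeller subunits). All 128 were tested, 91 averaged over 3 times background, and 0 passed edgeR's test in any of the 4 comparisons. At an unadjusted p under 0.05 they gave 0 to 1 genes in the comparisons with naive and 6 of 128 in SUS against RES. In SUS against RES 5.68% of all genes tested and 11.3% of the expressed protein-coding genes had such a p. Against naive, the shares of all genes were 0.921% for RES, 3.12% for SUS and 1.38% for cocaine. Values were below 0 for 112 of 128 in RES against naive (median -0.19), 57 in SUS against naive (0.04), 23 in SUS against RES (0.19) and 83 in cocaine against naive (-0.04). The members themselves had medians of -0.18, -0.05, 0.09 and -0.12 in that order. Of the expressed protein-coding genes 78.6%, 47.2%, 36.8% and 61.1% were below 0 in the same order, and of all genes tested 52.6%, 47.8%, 48.8% and 48.6%.

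Within the lists, all 11 histone acetyltransferases and all 8 bromodomain readers were below 0 for RES against naive, with medians of -0.29 and -0.35. For SUS against RES all 16 other methyltransferases were above 0, with a median of 0.17. These lists are named because every gene in them ran in a single direction. Of the expressed protein-coding genes, 78.6% were below 0 for RES against naive and 63.2% above 0 for SUS against RES. Without RES 3, 42.7% and 55.4% of those genes were below 0 in the 2 comparisons. The smallest p values in RES against naive went to Gadd45g, a helper of DNA demethylation induced by activity and stress, at -0.91 (SE 0.463) and to Brd2, a reader of acetylated histones, at -0.84 (SE 0.529), and in the other direction to the Polycomb partner Mtf2 at 0.30 (SE 0.336) and the neuronal SWI/SNF subunit Actl6b at 0.22 (SE 0.359). In SUS against naive they went to the Polycomb protein Ring1 at -0.76 (SE 0.320), the bromodomain protein Brd9 at -0.50 (SE 0.385) and the demethylase Kdm7a at 0.46 (SE 0.327). In SUS against RES, Gadd45g at 1.28 (SE 0.457) lay above 0, with an edgeR adjusted p of 0.87, and Actl6b at -0.44 (SE 0.358) and Ring1 at -0.29 (SE 0.322) lay below. For cocaine against naive, Ring1 was at -0.61 (SE 0.274), Brd9 at -0.48 (SE 0.313), Mtf2 at 0.29 (SE 0.286) and the acetyltransferase Kat2b at 0.13 (SE 0.237). None of these log2 fold changes passed the adjusted threshold.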

How the data were processed

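The 43 members and all gene lists were chosen with earlier results of these data known. The deposited table holds raw read counts per Ensembl gene, unscaled by the authors. Per the submitters' processing notes, FastQC, STAR 2.5.2b, HTSeq, DESeq, DESeq2 and the build GRCm38 were used. Their settings, the counting strand and the annotation release are not given in the sources used here. Exons and positions came from GENCODE mouse release M21 (52489 IDs matched, 147 did not), and promoters from RefSeq.

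The quasi-likelihood F test of edgeR 4.0.16 (R 4.3.3) was run on the 39210 genes that filterByExpr kept, after TMM scaling and with Benjamini-Hochberg adjustment. One model of 3 groups gave the pairwise comparisons, and a model of 2 groups gave cocaine against naive. SE is the fold change over the square root of F. Alternatives were DESeq2 1.42.0, limma 3.58.1 (voom with sample weights), other scalings and filters, a replicate block and leaving out each library. Same-numbered libraries did not deviate together (r of -0.17 to 0.172 over 9 pairs).

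Values in every library were given for the 3 members with the smallest p above the floor in each comparison, for 8 members of the main enzyme classes in cocaine against naive, and for the highest and lowest member of each role. Of the 128 further genes, 2 each way with the smallest p above the floor were named, except 1 gene that is not reported here. Hdac4, Suv39h1, the Suv39h2 comparison, Chd4 and Chd5 in SUS against RES, and the promoter windows and motifs, were chosen after values were seen.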

Additional observations from a re-analysis of the deposited data

Results flagged for a closer look

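Hdac10, a class II deacetylase that acts on polyamines, stood out in 1 library. It was at 28.17 CPM in SUS 3, while the other 5 cocaine libraries lay between 13.32 and 17.44 CPM. The gap to the nearest library was 0.723 of the range of these 6 libraries, above the 95% limit of Dixon's test for that number, which chance passes in about 1 in 20 groups. Of 43 members screened this was the 1 found, and its mean level was under 3 times background. SUS 3 also had the highest microglial marker level, 70.3, and the part of those cells in the value was not tested.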

How the results depend on the processing

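No alternative called any gene in any comparison. With each library left out in turn, the members below 0 and their median ranged from 18 to 40 and from -0.408 to 0.0108 for RES against naive, from 15 to 31 and from -0.1896 to 0.0461 for SUS against naive, from 3 to 30 and from -0.1371 to 0.2822 for SUS against RES, and from 16 to 36 and from -0.2644 to 0.0497 for cocaine against naive. For cocaine against naive the same ranges of log2 fold change were -0.1054 to 0.0328 for Tet1, -0.3427 to 0.1454 for Hdac5, -0.2705 to 0.0386 for Ehmt2, -0.4864 to 0.5358 for Kdm6b and -0.2247 to 0.2001 for Chd4. With RES 3 and SUS 3 both left out, a choice made after seeing the data, 20 members were below 0 for RES against naive (median 0.0016) and 18 for cocaine against naive (median 0.0152), where Tet1 became 0.0379, Hdac5 0.0146 and Ehmt2 0.098. Testing only protein-coding nuclear genes gave 0.0083 for Tet1 and 0.0115 for Kdm6b, and a filter of 10 CPM in 3 libraries gave 0.0145 and 0.0244. The cause of these shifts was not tested. With a replicate block, which the labels do not ask for, medians were -0.2482, -0.0512, 0.134 and -0.1525 in the order above and 0 genes were called. Members above 3 times background numbered 29, 30 by the median olfactory receptor and 41 by vomeronasal receptors. Without SUS 2, 5 of 43 members and 4712 of 40455 genes had an unadjusted p under 0.05 for SUS against RES. The smallest edgeR adjusted p there was 0.101 among members and 0.0611 over all genes. Depth limits mainly Suv39h1 and Suv39h2, with at most 88 counts a library.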
